A study of Mus musculus with 2 samples.

Results

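The genes described here are 10 markers of injured and repairing kidney tubules, Havcr1, Lcn2, Spp1, Sox9, Krt8, Krt18, Cd44, Plau, Clu and Vim. Their chromatin was read by CUT&RUN. In this assay antibodies guide micrococcal nuclease to a chromatin protein, and the short DNA pieces it frees are sequenced. Primary renal tubular epithelial cells from the kidney of wild type mice were given TNFα and IFNγ, and they gave 2 libraries of batch 1, for which anti-ELF3 and anti-NFKB2 antibodies were used, 1 each. The labels give no dose, time, age or number of animals. Untreated cells and an IgG list were not analysed here, so nothing below says whether binding depended on the cytokines. The members were taken as every listed region that overlaps a fixed window around each gene by 1 bp or more, in the coordinates of the files. There were 9 such windows, since Krt8 and Krt18 share 1, and they held 53 of 68319 ELF3 regions and 25 of 14217 NFKB2 regions.

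When the tubule is damaged, its epithelial cells lose part of their differentiated character, and those that survive spread, divide and rebuild the epithelium. During this change they make surface receptors and secreted proteins that serve as injury markers, simple epithelial keratins and vimentin, matrix receptors and proteases, and the progenitor factor SOX9. ELF3 belongs to the epithelial branch of the ETS factors, which recognise a GGAA core. NFKB2 is processed to p52, which acts in the non-canonical arm of NF-κB signalling and binds κB sites. The peak lists hold no expression values, so the labelled cell type could not be checked against its markers.

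The height of a region is given as the fragments at its summit, a whole number recovered from the fold and −log10 p that the authors' peak caller wrote. The lowest local background, called the floor here, was 1.22 fragments in the ELF3 library and 1.36 in the NFKB2 library. The floor was taken as the mean number of fragments over a position, so ratios of NFKB2 to ELF3 fragments were divided by 1.11. The caller's settings and control are not given, so this reading of the floor was not checked. At the floor the fewest fragments of a listed region were 6 for ELF3 and 8 for NFKB2. The least gap between neighbouring regions of a list was 1001 bp for ELF3 and 1006 bp for NFKB2. Whether wide regions are several sites joined by the caller was not tested, so a width is not a length of continuous binding. With 1 library for each antibody there is no replicate error, no difference has a replicate check, and no test over samples was possible. The 95% intervals cover counting error only. They are exact Poisson for fragments and for regions per Mb, and exact binomial for shares and for ratios of fragments. Those for regions per Mb treat regions as independent of each other.

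ELF3 was present in all 9 windows and NFKB2 in 8 of them, all except that of Sox9. The 9 windows held 3 to 12 ELF3 regions and 0 to 5 NFKB2 regions each. Among all 50 kb tiles of the autosomes and X, 55.1% held an ELF3 region and 18.6% an NFKB2 region. Every window held 3 or more ELF3 regions, and of the 10515 tiles with 3 or more, 56.2% held NFKB2. The windows, of 44 to 132 kb, are not all as long as a tile. Over the 584 kb of the windows this came to 90.8 ELF3 regions per Mb, against 26.6 over the autosomes and X, a ratio of 3.41 (95% interval 2.55 to 4.46). For NFKB2 it was 42.8 per Mb against 5.53, a ratio of 7.74 (5.01 to 11.4). The stretch used for comparison includes gene-poor DNA, and whether windows around other genes are as dense was not tested.

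**Figure D1:**
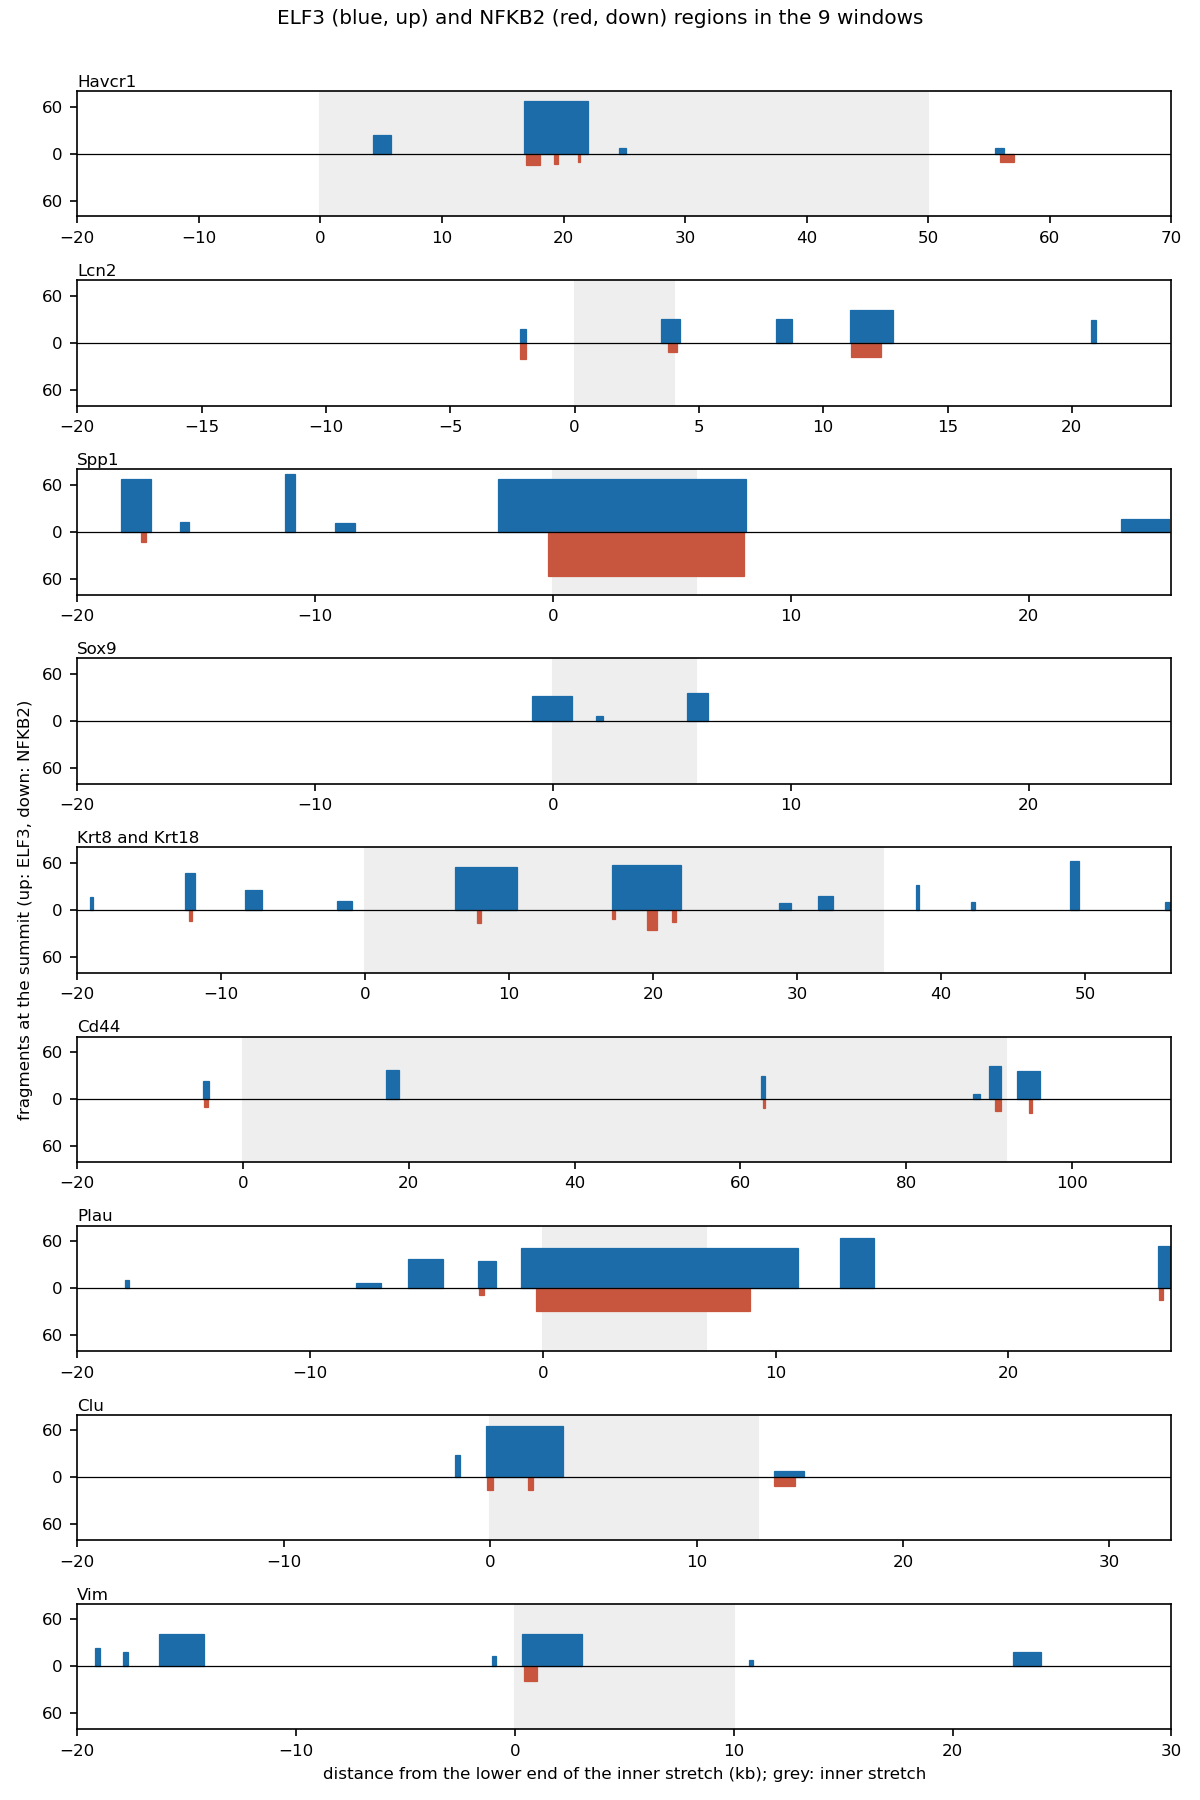
Regions of ELF3 (blue, upward) and NFKB2 (red, downward) in the 9 windows, drawn to their width in kb along the x axis and to their fragments at the summit on the y axis; grey marks the window less 20 kb at each end, which for Havcr1 is longer than the gene. A listed region of each protein spans the whole grey stretch at Spp1 and Plau, and no red region lies in the Sox9 window.

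All 25 NFKB2 regions lay on an ELF3 region (100%, 95% interval 86.3 to 100), where 96.8% of all NFKB2 regions did. NFKB2 was found at 20 of the 53 ELF3 regions (37.7%, 24.8 to 52.1), beside 19.7% of the whole ELF3 list. The ELF3 regions that met NFKB2 were the higher ones, with a median of 42.5 fragments and a median width of 1594 bp. Those without NFKB2 had medians of 18 fragments and 644 bp. Over the whole ELF3 list overlap also goes with height: in the quintile of highest −log10 q, 52.3% of regions overlapped NFKB2. There, 11 of the 15 member regions did (73.3%, 44.9 to 92.2), an interval that includes the share of the whole list. In the next quintile, 5 of 13 member regions did (38.5%, 13.9 to 68.4), an interval that includes the 24.6% of the whole list in that quintile.

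**Figure D2:**
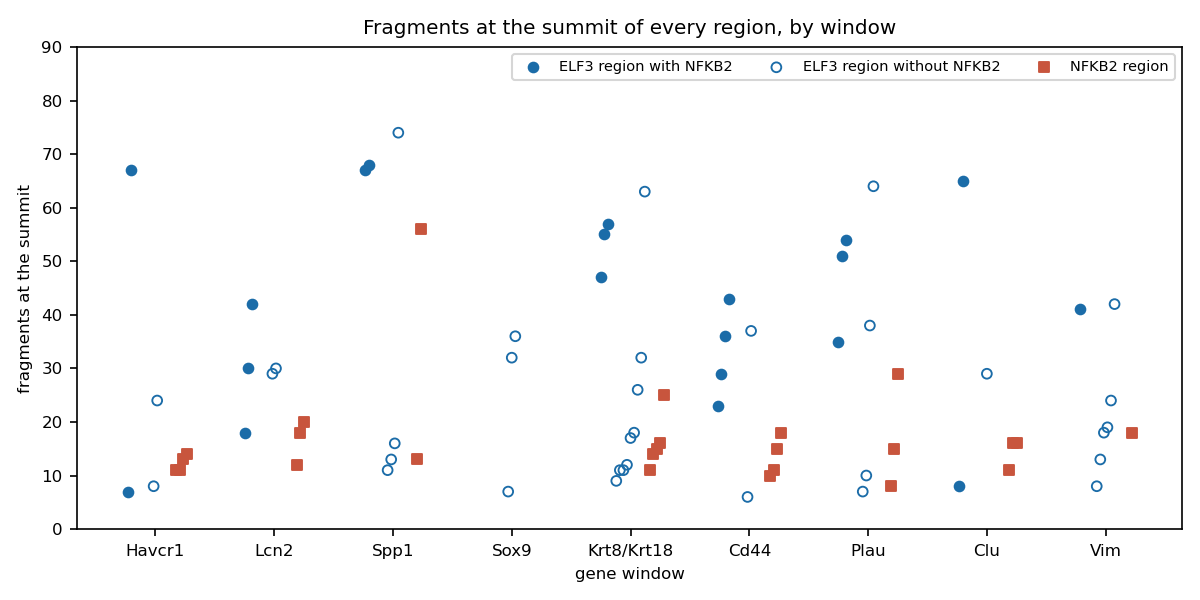
Fragments at the summit (y axis) of all 53 ELF3 and 25 NFKB2 regions in each gene window (x axis); filled circles are ELF3 regions that overlap NFKB2, open circles those that do not, and squares NFKB2 regions. Filled circles reach 68 fragments and open ones 74, both at Spp1, where the highest square, 56, also lies.

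The windows ran about 20 kb past each gene. With 20 kb taken off each end, the stretch left exceeded the RefSeq length of the gene or gene pair by -0.066 to 1.48 kb in 8 windows, so gene ends could be placed to within about 1 kb in the coordinates of the files. For Havcr1 it was 10.2 kb longer, and no end was placed. RefSeq promoters, and with them the strand, were matched for 7 of the 10 members; Sox9, Plau and Clu were not matched. At the start of Lcn2, Spp1, Krt8, Krt18, Cd44 and Vim an ELF3 region lay within 1 kb in 6 of 6 cases, and an NFKB2 region in 5 of 6. Krt18 was the gene without NFKB2 at its start. At the far ends of the same genes ELF3 lay within 1 kb in 3 of 6 cases and NFKB2 in 1 of 6. The share over all gene starts was not analysed here, so these counts have no background. The lower ends of Sox9, Plau and Clu carried ELF3 in 3 of 3 cases and NFKB2 in 2 of 3, Sox9 being the exception. Their higher ends gave the same counts, and which end is the start was not known. The 250 bases before these 6 starts are printed because regions of both lists, or of ELF3 alone at Krt18, lay within 1 kb of the start. Starts were placed only to within about 1 kb, so whether the regions cover the printed bases is not known. They come from RefSeq (GRCm38.p6), 5′ to 3′ on the strand of the gene, which is minus for Lcn2, Krt8 and Cd44 and plus for Spp1, Krt18 and Vim. For Spp1 the first of its 2 starts in the table is shown. Capitals mark GGAA or its reverse complement TTCC, and the longer runs in Krt18 and Vim mark κB matches.
Lcn2: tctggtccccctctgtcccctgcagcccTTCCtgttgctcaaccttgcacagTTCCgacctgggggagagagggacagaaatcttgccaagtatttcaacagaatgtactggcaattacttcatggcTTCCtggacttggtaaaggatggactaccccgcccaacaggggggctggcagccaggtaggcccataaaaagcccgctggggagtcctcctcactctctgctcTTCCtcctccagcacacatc
Spp1: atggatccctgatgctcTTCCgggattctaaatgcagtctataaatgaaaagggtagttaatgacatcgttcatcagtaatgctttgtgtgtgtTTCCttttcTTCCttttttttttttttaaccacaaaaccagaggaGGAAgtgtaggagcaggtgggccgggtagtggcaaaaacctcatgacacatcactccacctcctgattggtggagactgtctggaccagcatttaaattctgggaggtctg
Krt8: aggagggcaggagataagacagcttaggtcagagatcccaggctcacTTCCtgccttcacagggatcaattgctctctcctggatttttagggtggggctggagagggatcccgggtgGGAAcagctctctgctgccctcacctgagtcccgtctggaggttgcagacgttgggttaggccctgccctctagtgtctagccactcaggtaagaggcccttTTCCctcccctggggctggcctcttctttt
Krt18: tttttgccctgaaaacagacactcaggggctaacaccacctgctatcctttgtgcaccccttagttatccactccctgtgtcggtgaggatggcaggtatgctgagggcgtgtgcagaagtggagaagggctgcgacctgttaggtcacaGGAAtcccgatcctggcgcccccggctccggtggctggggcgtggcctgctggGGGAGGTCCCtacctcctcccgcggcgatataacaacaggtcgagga
Cd44: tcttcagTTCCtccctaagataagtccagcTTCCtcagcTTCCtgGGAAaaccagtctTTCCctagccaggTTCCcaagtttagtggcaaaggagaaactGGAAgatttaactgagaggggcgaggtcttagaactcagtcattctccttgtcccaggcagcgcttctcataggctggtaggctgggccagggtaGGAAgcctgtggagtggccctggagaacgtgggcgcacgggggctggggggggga
Vim: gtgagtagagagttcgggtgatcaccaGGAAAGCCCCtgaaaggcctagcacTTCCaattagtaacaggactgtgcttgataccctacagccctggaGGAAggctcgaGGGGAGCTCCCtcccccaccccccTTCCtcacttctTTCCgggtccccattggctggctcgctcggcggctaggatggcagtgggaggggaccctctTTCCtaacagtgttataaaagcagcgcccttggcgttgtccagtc
GGAA was searched on both strands, and every printed stretch held it, as did 93.4% of 32851 promoter stretches of the same length. The printed stretches held 1 match at Krt18, 3 at Krt8, 4 at Lcn2, 4 at Spp1, 6 at Vim and 8 at Cd44, where the median over all promoters was 3 (quartiles 2 and 4). The κB motif was searched on both strands as GGG, a purine, any pair of bases, a pair of pyrimidines and CC. Vim held 3 matches, 2 of them overlapping each other and 1 overlapping a GGAA, and Krt18 held 1, which began 47 bases before the start. Of all promoter stretches 7.25% held a match. Vim had an NFKB2 region within 1 kb of its start and Krt18 had none. Lcn2, Spp1, Krt8 and Cd44 had NFKB2 regions within 1 kb of the start and no match in these letters.

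Havcr1 encodes KIM-1, a phosphatidylserine receptor of the apical membrane that lets injured proximal tubule cells take up dying neighbours. Its window on chromosome 11, 46600 to 46690 kb, held 4 ELF3 regions with 24, 67, 8 and 7 fragments. The highest ran from 46636711 to 46642035, 5325 bp wide, with 67 fragments (51.9 to 85.1) and a fold over local background of 30.6. This made it the 171st widest ELF3 region of the list, in its top 0.250%. Folds are the values of the authors' caller. It contained 3 NFKB2 regions, with 14, 13 and 11 fragments, which covered 31.5% of its length. In the whole list 0.479% of ELF3 regions, of all widths (median 418 bp), held 2 or more NFKB2 regions, and the share among regions as wide was not analysed. Each of the 3 was lower than the ELF3 summit, at ratios of 0.188 (0.0977 to 0.338), 0.175 and 0.148. Their summits lay 44, 2351 and 4255 bp from that of ELF3. The other NFKB2 region, 46675899 to 46677032, had 11 fragments and overlapped the ELF3 region of 7 fragments. The ratio there was 1.42, the highest of all member pairs, with an interval from 0.501 to 4.31 that holds equal signal.

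Lcn2 encodes lipocalin 2 or NGAL, a siderophore-binding protein released into urine by damaged tubules. Its window on chromosome 2, 32254 to 32298 kb, held 5 ELF3 regions of 18 to 42 fragments and 3 NFKB2 regions of 12, 18 and 20. At the gene start, ELF3 had 30 fragments between 32277457 and 32278239. NFKB2 had 12 fragments there, between 32277756 and 32278129, a ratio of 0.360 (0.168 to 0.725). The highest ELF3 region, 32285070 to 32286797, had 42 fragments and carried an NFKB2 region of 18. It lay beyond the gene start, in a flank that also takes in the neighbouring gene Ptges2. The other 2 ELF3 regions in the flank beyond the start, with 30 and 29 fragments, had no NFKB2. On the other side, where Ciz1 and 1110008P14Rik are the neighbours, ELF3 had 18 and NFKB2 20 fragments with summits 41 bp apart. That pair was equal after depth adjustment, with a ratio of 1.00 (0.503 to 2.01), and its local background was 2.43 times the floor for ELF3 and 2.29 times for NFKB2, the highest of all member regions.

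Clu encodes clusterin, a secreted chaperone that rises in damaged tubules. In its window on chromosome 14, 66186 to 66239 kb, the lower gene end lay in an ELF3 region of 3701 bp, 66205824 to 66209524, with 65 fragments (50.2 to 82.8). It held 2 NFKB2 regions of 16 fragments each, both at a ratio of 0.222 (0.120 to 0.388). The first had its summit 70 bp from the ELF3 summit and the second 1909 bp. Past the higher gene end, toward Gulo, NFKB2 had 11 fragments and ELF3 8, with summits 126 bp apart, a ratio of 1.24 whose interval (0.454 to 3.55) includes equal signal. The remaining ELF3 region had 29 fragments and no NFKB2.

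Spp1 encodes osteopontin, a secreted, integrin-binding phosphoprotein made by injured tubules, and it carried the highest NFKB2 region of all the windows. Its window on chromosome 5, 104563 to 104609 kb, held 6 ELF3 regions of 74, 68, 67, 16, 13 and 11 fragments. The ELF3 region from 104580706 to 104591130 was 10425 bp wide and covered the whole gene. An NFKB2 region of 8269 bp, 104582777 to 104591045, lay inside it, covered 79.3% of it and likewise spanned the whole gene. NFKB2 had 56 fragments (42.3 to 72.7) and a fold of 23.8, ELF3 67 (51.9 to 85.1) and a fold of 30.6. The ratio of the 2 summits was 0.753, with an interval (0.518 to 1.09) that includes 1, but they lay 8643 bp apart. ELF3 had its summit before the gene start and NFKB2 at or just past the other gene end. The ratio therefore does not compare both proteins at the same position. The NFKB2 region ranked 209th by −log10 q among 14217 and 12th by width. A pair of further strong ELF3 regions lay before the gene. The one at 104564823 to 104566091 had 68 fragments and an NFKB2 region of 13 (ratio 0.172, 0.0873 to 0.315). The other, 420 bp wide at 104571734 to 104572153, had 74 fragments, the most of any member region, over a local background 1.62 times the floor, and no NFKB2 region.

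Krt8 and Krt18 encode the partner keratins of simple epithelia, type II and type I, whose filaments are reinforced in stressed tubule cells. They neighbour each other on chromosome 15, and the window of 101885 to 101961 kb held 12 ELF3 and 5 NFKB2 regions, the most of any window for both. At the Krt8 start ELF3 covered 4329 bp, 101911247 to 101915575, with 55 fragments (41.4 to 71.6). NFKB2 had 16 fragments there, a ratio of 0.262 (0.140 to 0.464), with summits 117 bp apart. At the Krt18 start ELF3 had 18 fragments, 101936463 to 101937516, and no NFKB2 was listed. Between the genes an ELF3 region of 4774 bp, 101922145 to 101926918, had 57 fragments and held 3 NFKB2 regions of 11, 25 and 15. The middle one, 101924573 to 101925282, had its summit 5 bp from that of ELF3 and a ratio of 0.395 (0.237 to 0.643). Of the remaining ELF3 regions, 101892463 to 101893174, on the side of Krt78, had 47 fragments with an NFKB2 region of 14. The one at 101953935 to 101954575, past Krt18, had 63 fragments (48.4 to 80.6) and no NFKB2. The other 7 had 9 to 32 fragments, and none of them met NFKB2.

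Vim encodes vimentin, the intermediate filament of mesenchymal cells that dedifferentiating tubule cells take up. Its window on chromosome 2, 13558 to 13608 kb, held 7 ELF3 regions of 8 to 42 fragments and 1 NFKB2 region. That region, 13578394 to 13578991, had 18 fragments and lay at the gene start, in the ELF3 region of 41 fragments from 13578341 to 13581082. Their summits were 10 bp apart and the ratio was 0.396 (0.214 to 0.704). An ELF3 region just as high, with 42 fragments at 13561734 to 13563801, lay before the gene without NFKB2. The remaining 5 ELF3 regions, of 8 to 24 fragments, also had no NFKB2.

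Cd44 encodes the hyaluronan and osteopontin receptor, and its window on chromosome 2, 102621 to 102753 kb, was the longest. It held 6 ELF3 regions of 6 to 43 fragments and 4 NFKB2 regions of 10, 11, 15 and 18, each on its own ELF3 region. At the gene start ELF3 had 43 fragments, 102731060 to 102732390, and NFKB2 15, a ratio of 0.314 (0.162 to 0.577). Before the start, at 102734347 to 102737128, ELF3 had 36 and NFKB2 18 fragments with summits 7 bp apart (ratio 0.450, 0.241 to 0.814). Inside the gene, at 102703534 to 102703994, the counts were 29 and 11 with summits 5 bp apart. Past the far end they were 23 and 10, over a local background 1.62 times the floor for ELF3 and 1.53 times for NFKB2. All 4 pairs had summits within 100 bp, and ELF3 was the higher one in each. The other ELF3 region of more than 6 fragments, in the gene at 102658255 to 102659805, had 37 fragments and no NFKB2.

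Plau encodes urokinase, the serine protease that turns plasminogen into plasmin, and like Spp1 it lay whole within wide regions of both proteins. In its window on chromosome 14, 20867 to 20914 kb, the ELF3 region from 20886069 to 20897944 was 11876 bp wide, the 20th widest of the list, and had 51 fragments (38.0 to 67.1). The NFKB2 region from 20886702 to 20895917 was 9216 bp wide, the 10th widest of its list, and had 29 fragments (19.4 to 41.6). It covered 77.6% of the ELF3 region, and the ratio of fragments was 0.512 (0.313 to 0.824). The 2 summits lay 1008 bp apart, both at or past the higher gene end. Above the gene, ELF3 regions of 64 fragments (20899758 to 20901236, no NFKB2) and 54 fragments (20913412 to 20918115) followed. The second reached past the window and held 2 NFKB2 regions, of which the 1 in the window had 15 fragments. Below the gene, ELF3 had 35 fragments at 20884226 to 20884998 with 8 for NFKB2, the lowest NFKB2 region of all the windows, and 38, 10 and 7 in regions without NFKB2.

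Sox9 encodes the transcription factor that marks surviving tubule cells as they begin to rebuild the epithelium, and it was the member whose window had ELF3 regions only. Its window on chromosome 11, 112653 to 112699 kb, held 3. At the lower gene end ELF3 had 32 fragments, 112672101 to 112673785, and at the higher end 36, 112678628 to 112679505. A region of 7 fragments lay between them. ELF3 covered 24.6% of the gene stretch. The nearest NFKB2 region lay 3.11 kb past the window, at 112702108 to 112702570, with 9 fragments. When windows were 20 kb longer at each end, all 9 held NFKB2. At −log10 q of 10 or more, the Havcr1 and Clu windows also held no NFKB2 region. NFKB2 signal of fewer than 8 fragments would not be listed, so the list does not tell weak binding in the Sox9 window from none. In the whole ELF3 list, the −log10 q quintile that holds the regions at both Sox9 gene ends had NFKB2 at 24.6% of its regions.

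**Figure D3:**
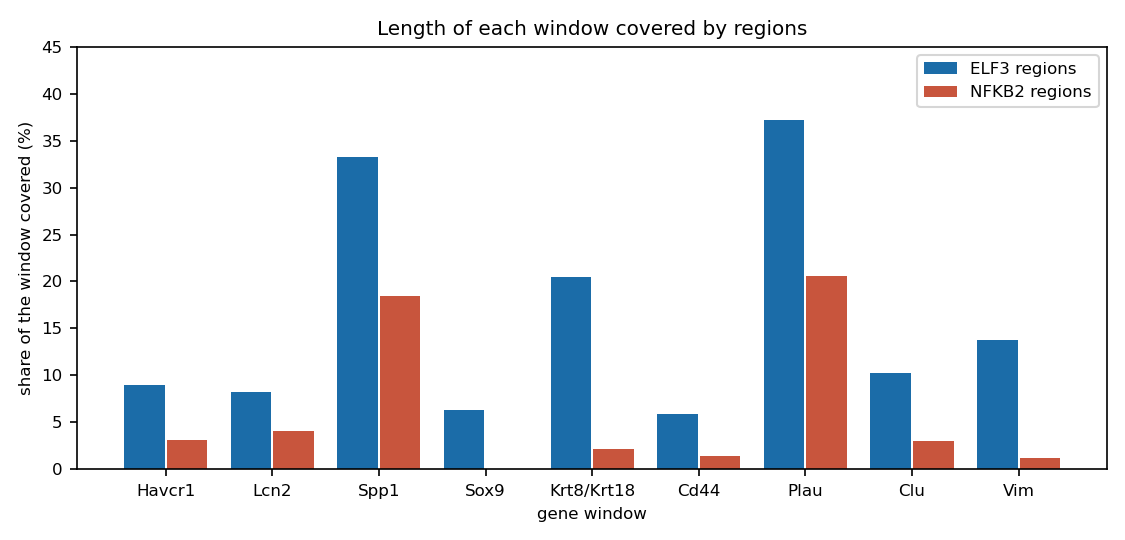
Share of each window's length (y axis, %) within ELF3 regions (blue bars) and NFKB2 regions (red bars), by gene window (x axis), 1 library each. Plau (37.2% and 20.5%) and Spp1 (33.3% and 18.4%) stand highest for both, and Sox9 has 6.26% for ELF3 and 0% for NFKB2.

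Plau and Spp1 had the most of their windows covered by listed regions of both proteins, which may each join several sites. ELF3 regions took 37.2% of the Plau window and 33.3% of the Spp1 window, and 5.92% (Cd44) to 20.5% (Krt8 and Krt18) of the others. NFKB2 regions took 20.5% and 18.4%, and 0% to 4.08% (Lcn2) of the others. Regions of more than 8 kb numbered 49 in the whole ELF3 list and 12 in the NFKB2 list. In each list 2 of these lay in the windows, at Spp1 and at Plau.

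Where both proteins met, ELF3 had the higher summit in 22 of 25 pairs. The median NFKB2 over ELF3 ratio was 0.314, with a range of 0.148 to 1.42, beside 0.365 over all 13769 pairs of the lists. These ratios compare different antibodies whose efficiency was not measured, so they do not give relative occupancy. Each sets the NFKB2 summit against the highest point of the ELF3 region, which can lie at another position. ELF3 signal at the NFKB2 summit itself is not listed and may be lower. NFKB2 was nominally higher in 3 pairs, at Havcr1, Lcn2 and Clu, all of them with intervals that include 1; it was higher in 4.95% of all pairs. In 21 pairs the interval lay below 1. The 4 others were these 3 and the wide pair at Spp1. Summits lay 5 to 8643 bp apart with a median of 117 bp, beside 41 bp over all pairs. They were within 100 bp in 12 of 25 pairs, against 75.5% of all pairs. Several pairs share an ELF3 region, since the 25 pairs drew on 20 ELF3 regions. Of the 16 member pairs whose ELF3 region held a single NFKB2 region, 9 were within 100 bp. The share over all such pairs was not analysed, so this last count has no background.

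**Figure D4:**
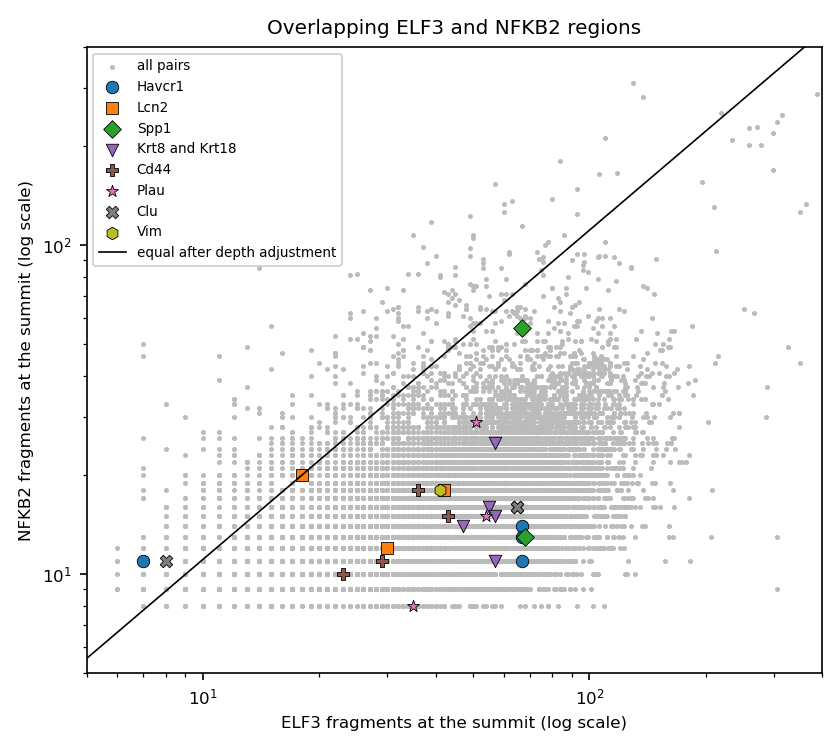
ELF3 (x axis) and NFKB2 (y axis) fragments at the summit, both on log scales, for overlapping regions in the member windows (large symbols, by window) and in the whole lists (small grey points; 70 of 13769 pairs lie beyond the axes, which end at 400 fragments). The line marks equal signal after depth adjustment; 22 of the 25 member pairs lie below it, and the Spp1 pair at 67 and 56 fragments is the highest for NFKB2.

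Strong ELF3 signal without NFKB2 was also found. Among the member ELF3 regions, 11 reached 50 fragments, and 3 of these did not meet NFKB2 (27.3%, 6.02 to 61.0), 1 each at Spp1 (74), Krt8 and Krt18 (63) and Plau (64), beside 40.9% of all ELF3 regions as high. All 3 lay outside the genes. They were 420, 641 and 1479 bp wide, while the 8 with NFKB2 were 1269 to 11876 bp wide.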

How the data were processed

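The data were the CUT&RUN peak lists of the ELF3 and the NFKB2 library, grouped by the labels. The submitters' processing notes name MACS2 as the caller; version, settings, aligner, filters and control are not given in the sources used. In the deposited lists each region has a summit, a score (the whole part of 10 times −log10 q), a fold (ratio of summit to local background, 1 added to each) and −log10 p and q. The processing notes name mm10, but sequence names in the files belong to GRCm39; coordinates are printed as deposited, 1-based, and were not converted.

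The members, windows and lists were chosen with earlier results of these data known. All 10 genes are named; in each window the region of highest −log10 q, the NFKB2 regions and the highest ELF3 regions without NFKB2 are named. Some other regions were named after their values were seen.

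Fragments and background at a summit were solved from the deposited fold and −log10 p under the Poisson model of MACS2 (Python 3.11.15, scipy 1.17.1; within 0.01 of −log10 p, scaled up above 100). This solved all ELF3 regions and all but 10 of 14217 NFKB2 regions, none of these in the windows, and was tested on simulated data. Each fragment counted as 1.00 for ELF3 and as 0.964 for NFKB2, and the lowest background was taken as the depth. Each NFKB2 region was paired with the overlapping ELF3 region of most fragments. Gene lengths, neighbours and promoters came from RefSeq (GRCm38.p6); none of its coordinates were used. Counts over other injury genes need an annotation of the files' build and were not run. The alternatives tried were −log10 q limits of 5 and 10, membership by summit, windows 20 kb shorter or longer at each end, regions at the floor only, stricter overlap, lists of equal length, another partner, deposited folds and no depth adjustment.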

Additional observations from a re-analysis of the deposited data

How the results depend on the processing

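The ratio without depth adjustment was added after seeing the data. Of 60 values over all 9 windows, 46 stayed within 1.5 times (counts) or within the 95% interval of the value reported. With −log10 q of 5 or more, 16 NFKB2 regions were left in the windows, and with 10 or more 6, with 16.2% of ELF3 regions on NFKB2, an NFKB2 density ratio of 4.91 and a median NFKB2 over ELF3 ratio of 0.423; fewer regions pass by construction. Windows 20 kb shorter at each end held 19 ELF3 and 15 NFKB2 regions, with 52.6% of ELF3 regions on NFKB2 and an NFKB2 density ratio of 12.1; windows 20 kb longer held 84 ELF3 regions. With summits within 100 bp as the rule for sharing, 22.6% of ELF3 and 48% of NFKB2 regions were shared. With the ELF3 list shortened to the length of the NFKB2 list, the shares were 68.8% and 64%. The causes of these moves, beyond the shorter lists and windows, were not tested. Shares and median ratios over the whole lists were not analysed under the same settings, so those given here have no background. Of 108 counts in single windows, 73 stayed within 1.5 times. No paired analysis was possible because each group has 1 sample. The planned counts for other injury genes and for all gene windows were not run. Weak binding is not listed, so a missing region is not missing binding.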

Other observations

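The windows differed in how far away the next NFKB2 region lay. Past the window edges it was 142.3 kb away for Vim, 129.9 kb for Havcr1 and 47.6 kb for Clu. For Plau it was 1.91 kb away, inside the ELF3 region that crosses the window edge, for Lcn2 11.3 kb, for Spp1 15.2 kb, for Krt8 and Krt18 21.0 kb and for Cd44 25.4 kb. The last of these, at chromosome 2, 102595136 to 102595560, had 37 fragments, more than any NFKB2 region in the Cd44 window. Over the autosomes and X there were 5.53 NFKB2 regions per Mb, and 18.6% of 50 kb tiles held NFKB2. Distances between regions of the whole list were not analysed, so those given here do not show isolation or crowding. No explanation of these distances was tested.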
